A study of Mus musculus with 8 samples.

Results

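Ccn1, Ccn2, Tgfb2, Fstl1, Fjx1, Crim1, Axl, F3, Ankrd1 and Dlc1 are 10 genes widely used as direct transcriptional targets of YAP and TAZ. They were taken by name from the 56748 genes of the count table, and all 10 were among the 14279 genes with enough counts to be tested, each over the limit on low counts in all 4 groups. The libraries came from primary hepatocytes of C57BL/6J Yap fl/fl;Taz fl/fl mice that received virus at 7 to 8 weeks of age, with cells isolated 10 days later and RNA taken after 24 h on collagen-coated polyacrylamide hydrogels. Yap/TazHepKO (KO) mice received AAV8-TBG-Cre, whose TBG promoter is active in hepatocytes, and wild-type (WT) mice carried the same floxed alleles and received AAV8-TBG-Null. The hydrogels were soft (1 kPa) or stiff (20 kPa), which gave KO soft, KO stiff, WT soft and WT stiff, with 2 libraries in each. The labels give the sex of the mice in both ways, and the study's methods describe the line as also bred to a Cre-activated ROSA26-LSL-tdTomato reporter. Nothing states that the libraries of a group came from separate animals, so the p-values measure the spread between these libraries, which may be technical.

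YAP and TAZ (the Wwtr1 product) are transcriptional coactivators that bind no DNA themselves and act mainly through TEAD factors, often beside AP-1 factors. Hippo pathway kinases keep them out of the nucleus, and a rigid matrix, cell spreading and actomyosin tension favour their entry. Matricellular proteins such as CCN1 and CCN2, and regulators of cell contact and cytoskeleton, are among the products of their target genes, and in liver the pathway is known for its part in organ size, regeneration and fibrosis.

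The letters GGAATG, the core that TEAD factors bind, and TGANTCA, the AP-1 site, were searched on both strands in RefSeq promoter windows of GRCm38.p6, from 250 bases before to 50 bases after the annotated start. The matches did not overlap each other. Windows were found for 7 of the 10 genes, and none for Ccn2, Fjx1 and Dlc1. GGAATG or its reverse complement CATTCC stood in 4 of the 7 windows (Ccn1, Crim1, Axl and Ankrd1), against 14.7% of 32851 windows of the genome. TGANTCA stood in 1 of the 7, that of F3, against 7.81% of all windows. A match is a description of these letters and not of a bound site, and the windows of Tgfb2 and Fstl1 held neither motif. The 250 bases before the start are printed 5′ to 3′ along the gene for the 5 genes with a match, because they show where the motifs lie, and capitals mark the matched letters.
Ccn1 (chr3:145649986-145650235, GRCm38.p6, reverse strand): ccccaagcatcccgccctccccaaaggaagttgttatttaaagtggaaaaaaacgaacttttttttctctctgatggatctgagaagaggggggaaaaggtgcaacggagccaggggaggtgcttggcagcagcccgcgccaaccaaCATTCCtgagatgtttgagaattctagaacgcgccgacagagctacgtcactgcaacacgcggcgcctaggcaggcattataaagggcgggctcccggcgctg
Ankrd1 (chr19:36119845-36120094, GRCm38.p6, reverse strand): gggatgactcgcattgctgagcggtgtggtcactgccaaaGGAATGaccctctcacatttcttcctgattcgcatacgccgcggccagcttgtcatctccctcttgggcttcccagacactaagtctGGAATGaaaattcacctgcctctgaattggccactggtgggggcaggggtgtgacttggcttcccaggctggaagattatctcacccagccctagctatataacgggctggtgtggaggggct
Crim1 (chr17:78199998-78200247, GRCm38.p6, forward strand): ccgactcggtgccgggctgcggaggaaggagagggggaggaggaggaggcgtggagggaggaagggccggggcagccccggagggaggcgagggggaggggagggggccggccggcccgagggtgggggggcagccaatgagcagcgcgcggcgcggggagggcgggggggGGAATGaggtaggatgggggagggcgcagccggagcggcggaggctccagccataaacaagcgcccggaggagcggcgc
Axl (chr7:25788734-25788983, GRCm38.p6, reverse strand): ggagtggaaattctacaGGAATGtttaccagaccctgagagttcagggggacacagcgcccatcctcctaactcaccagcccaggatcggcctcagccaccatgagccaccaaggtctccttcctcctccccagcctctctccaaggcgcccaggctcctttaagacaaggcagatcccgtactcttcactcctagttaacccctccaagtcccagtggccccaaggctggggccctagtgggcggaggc
F3 (chr3:121723287-121723536, GRCm38.p6, forward strand): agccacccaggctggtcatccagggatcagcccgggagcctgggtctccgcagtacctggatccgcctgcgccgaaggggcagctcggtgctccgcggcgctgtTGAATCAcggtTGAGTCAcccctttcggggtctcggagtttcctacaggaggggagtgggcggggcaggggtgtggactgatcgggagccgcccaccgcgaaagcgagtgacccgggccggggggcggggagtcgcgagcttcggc

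In the Ccn1 window CATTCC began 103 bases before the start. Ankrd1 held GGAATG at 210 and 123 bases before the start and was the only gene of the 7 with a pair of TEAD matches. Crim1 and Axl each held 1 match, at 79 and 233 bases, and no relation of motifs to response was tested. F3 held 2 AP-1 matches, TGAATCA at 146 and TGAGTCA at 135 bases before the start.

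The libraries held between 18324083 and 26442310 counts, so that 3 counts, the limit that a count of 0 allows, stood for 0.113 to 0.164 CPM (counts scaled to a common library size) for counting error only. The lowest count of any of the 10 genes was 16, for Fjx1. Levels below are normalized CPM, which is the count divided by the library's TMM-scaled total, and a gene is called where its Benjamini-Hochberg adjusted p over all tested genes (edgeR's quasi-likelihood test) was under 0.05 and its log2 fold change over 0.5 in either direction. The targeted genes were lower in the KO libraries but not absent. Yap1 read 28.4 to 31.8 CPM in the 4 KO libraries, 95.5 and 99.8 on WT soft and 135 and 140 on WT stiff, and Wwtr1 read 13.7 to 16.6, 41.5 to 42.5 and 63.9 to 65.2. On WT stiff Yap1 was 1.41-fold (not called) and Wwtr1 1.54-fold its WT soft level. Reads from outside the floxed exons would still be counted, so these values do not measure how complete the deletion was. Of the hepatocyte markers, 9 of 10 were found in the table and all 9 had counts in every library, with a summed level of 62985 to 63703 CPM in KO and 90987 to 94885 CPM in WT libraries, mostly Alb. Other members of that list did not all follow Alb. On stiff 2 of the 9 (Hnf4a and Asgr1) were called higher and 3 lower in KO, against 13.7% and 15.0% of all tested genes. In WT 3 of the 9 (Hnf4a, Asgr1 and Fgb) were called lower on stiff and none higher, against 9.26% and 10.0%. The study itself reported higher YAP/TAZ target genes on the stiff surface from these libraries, without naming them in its text. The direction of the 10 genes is therefore not independent evidence.

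In WT hepatocytes 8 of the 10 genes were called higher on the stiff hydrogel and none lower, where 10.0% of all tested genes were called higher and 9.26% lower. In KO hepatocytes none of the 10 was called in either direction, where 0.0210% of all tested genes (3 genes by edgeR) were. The median log2 fold change of the 10 genes from soft to stiff was 1.88 in WT and -0.0042 in KO cells, and that of all tested genes was -0.0087 and 0.0076. At an unadjusted p under 0.05 by edgeR there were 10 of the 10 in WT, with Fstl1 lower and the others higher on stiff. In KO cells there were 2 of the 10, Tgfb2 and Ankrd1, both lower on stiff. The share of all tested genes under that limit is not given here. DESeq2 also called none of the 10 in KO cells. The genes are described below in the order of what their products do.

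**Figure D1:**
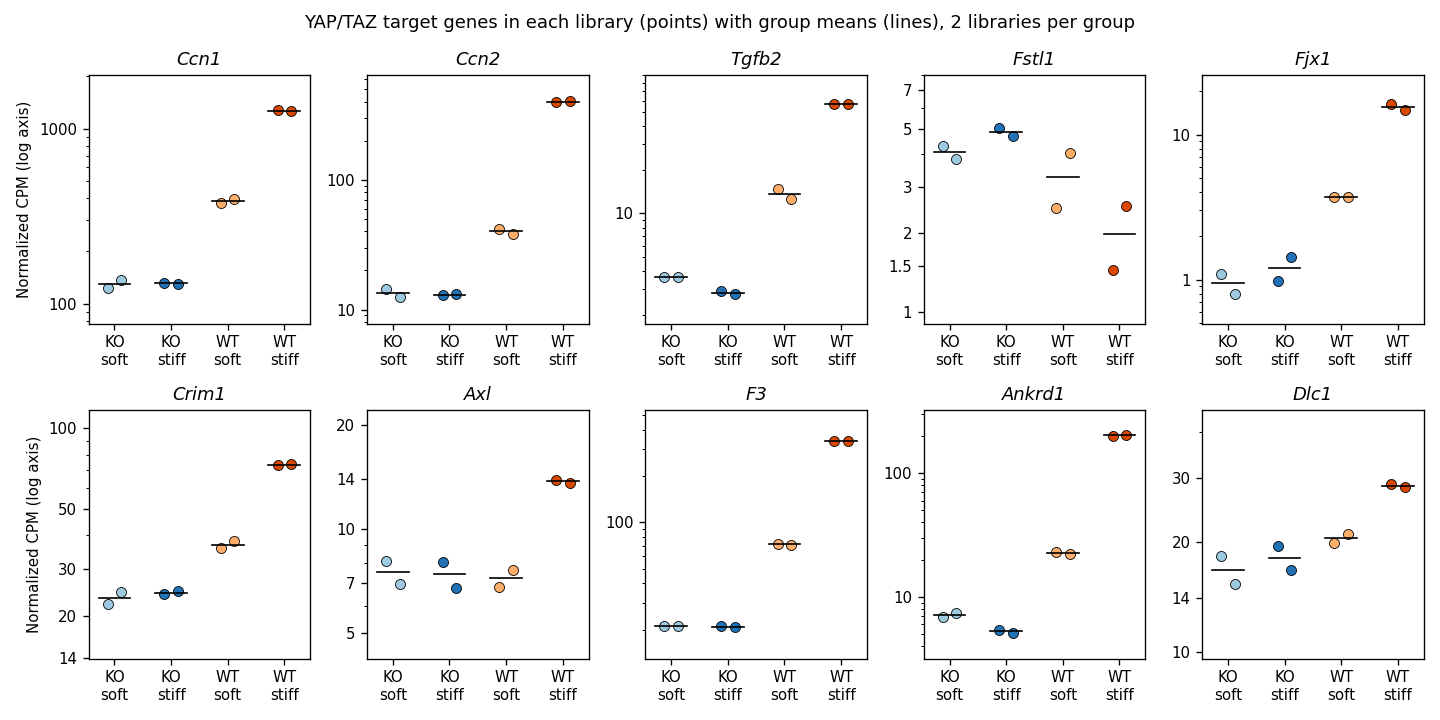
Normalized CPM (log axes, a scale for each gene) of the 10 genes in each library (points), with the mean of each group (lines) and 2 libraries in each of KO soft, KO stiff, WT soft and WT stiff. Ccn1, Ccn2, Tgfb2, Fjx1, Crim1, F3 and Ankrd1 climb from KO through WT soft to WT stiff, Axl is higher on WT stiff, and Fstl1 runs the other way, from 4.85 CPM on KO stiff to 1.99 CPM on WT stiff.

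Ccn1 (ENSMUSG00000028195, chr3:145352731-145355736, reverse strand as in the deposited table) encodes a secreted matricellular protein, formerly Cyr61, that binds integrins. Its levels were 123 and 136 CPM on KO soft, 132 and 129 on KO stiff, 374 and 398 on WT soft and 1271 and 1264 on WT stiff. The KO groups overlapped each other, and the WT soft and WT stiff libraries each lay clear of every other group. The rise in WT was 3.29-fold (95% interval 3.07 to 3.51), while in KO the ratio of stiff to soft was 1.01 (0.943 to 1.09). On the soft hydrogel Ccn1 was already 2.99-fold higher in WT than in KO (2.79 to 3.20, adjusted p = 1.40e-13).

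Ccn2 (ENSMUSG00000019997, chr10:24471340-24474581), formerly Ctgf, encodes connective tissue growth factor, a matricellular protein tied to scarring. The 4 KO libraries read 14.3, 12.4, 12.8 and 13.2 CPM, soft before stiff. WT soft read 41.7 and 38.4 CPM, and WT stiff 399 and 402. No other gene of the 10 had a higher fold change from soft to stiff in WT (9.98-fold, 9.14 to 10.9), and its KO ratio was 0.969 (0.857 to 1.10). On soft the WT level was 2.99-fold that of KO (2.69 to 3.32, adjusted p = 2.36e-11), a ratio like that of Ccn1, although the stiffness response of Ccn2 in WT was larger.

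Tgfb2 (ENSMUSG00000039239, chr1:186354989-186438186, reverse strand) encodes the ligand TGF-β2. It read 3.63 CPM in both KO soft libraries, 2.90 and 2.77 on KO stiff, 14.7 and 12.6 on WT soft and 56.7 and 56.9 on WT stiff. The rise in WT was 4.14-fold (3.60 to 4.76, adjusted p = 5.84e-12). In KO cells the stiff level lay below the soft level in all libraries, a ratio of 0.782 (0.619 to 0.988) whose unadjusted p was 0.0405 and whose adjusted p was 0.645. Gm35546, on the opposite strand, shares 38422 bases of the span of Tgfb2 and had 30.4% to 60.3% as many counts, with 31 to 44 counts in KO, 95 and 116 on WT soft and 375 and 416 on WT stiff. The study's methods name dUTP, which marks strand, for the libraries, but whether the counting used strand is not given in the sources used here, so the Tgfb2 value is uncertain to that extent.

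Fjx1 (ENSMUSG00000075012, chr2:102279711-102282844, reverse strand) encodes the mammalian counterpart of the fly Golgi kinase four-jointed. It was the least abundant of the rising genes in KO and on WT soft, but not on WT stiff, where Axl was lower. It read 1.09 and 0.796 CPM on KO soft and 0.984 and 1.43 on KO stiff. WT soft read 3.74 and 3.72 CPM, and WT stiff 16.2 and 14.7. In counts the KO libraries held 28, 16, 21 and 29 reads against 335 and 290 on WT stiff. The rise in WT was 4.14-fold (3.20 to 5.34), close to that of Tgfb2, and the KO ratio of 1.25 had a wide interval from 0.816 to 1.93, so a change within it was not detectable at these counts.

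Fstl1 (ENSMUSG00000022816, chr16:37597235-37656876), a secreted follistatin-like glycoprotein, was the exception among the 10. It read 4.29 and 3.83 CPM on KO soft, 5.01 and 4.69 on KO stiff, 2.50 and 4.05 on WT soft and 1.45 and 2.54 on WT stiff. These were 30 to 110 counts per library, and the WT groups overlapped. The WT ratio of stiff to soft was 0.619 (0.409 to 0.937), an adjusted p of 0.0606 by edgeR that was not called, and on the stiff hydrogel Fstl1 was 2.44-fold higher in KO than in WT (1.64 to 3.63, adjusted p = 0.000649). The WT change was called without the first WT soft library (log2 -1.02, adjusted p = 0.0129), without the second WT stiff library (-1.15, adjusted p = 0.0173), with no filter on low counts and with robust estimation of the spread.

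Fstl1 is also a gene of mesenchymal cells, and the summed markers of stellate, endothelial and Kupffer cells moved in the same direction. Those of cholangiocytes, mostly Spp1, ran the other way. They summed to 343 to 369 CPM in KO, 572 to 603 on WT soft and 622 to 627 on WT stiff. The summed level of 12 stellate cell and fibroblast markers ran from 53.8 to 57.9 CPM in KO, 37.4 to 37.9 on WT soft and 25.3 to 27.0 on WT stiff, and on the stiff hydrogel 7 of the 9 tested were called higher in KO, against 13.7% of all tested genes, and 1, Col1a1, was called lower. From soft to stiff in WT 4 of the 9 were called lower and 1, Col1a1, higher (log2 0.78, adjusted p = 0.00368), against 9.26% and 10.0% of all tested genes. Lrat, a defining stellate cell marker, was at 0 in 4 of 8 libraries. The summed level of 10 endothelial markers was 95.3 to 100.6 CPM in KO, 72.5 to 78.0 on WT soft and 54.9 to 57.6 on WT stiff, with 8 of 10 called higher in KO on stiff, and that of 11 Kupffer cell and macrophage markers was 129 to 133, 89.6 to 92.7 and 63.8 to 68.3, with 9 of 11 called higher. The part of these cells in the Fstl1 values was not tested, and in bulk RNA fewer cells of a type and less RNA per cell cannot be told apart.

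**Figure D2:**
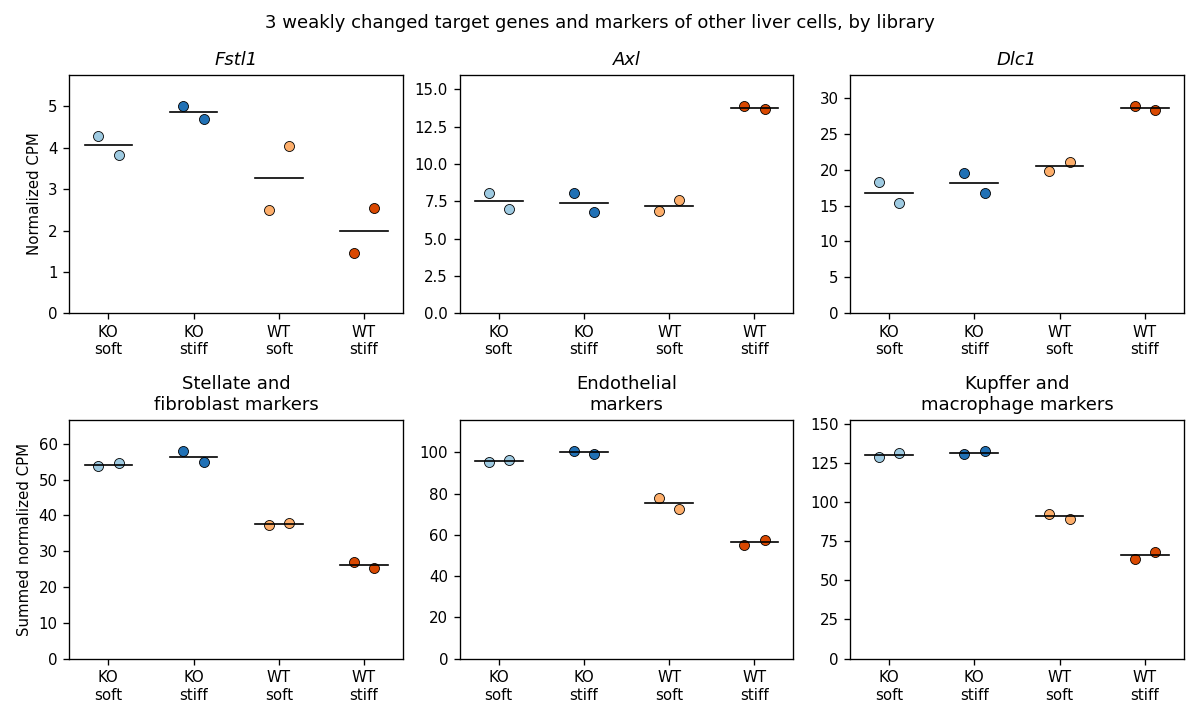
Normalized CPM of Fstl1, Axl and Dlc1 (top) and the summed normalized CPM of Kupffer cell and macrophage, endothelial, and stellate cell and fibroblast markers (bottom), per library (points) with group means (lines) on linear axes from 0. The marker sums and Fstl1 have their lowest means on WT stiff, where Axl (13.7 and 13.9 CPM) and Dlc1 (28.3 and 28.9 CPM) are highest.

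Among membrane proteins, F3 (ENSMUSG00000028128, chr3:121517186-121528697) encodes tissue factor, which starts the extrinsic clotting cascade. It read 21.2 CPM in both KO soft libraries, 21.0 and 20.7 on KO stiff, 72.5 and 71.1 on WT soft and 337 and 340 on WT stiff. The replicates nearly coincided, and the rise in WT was 4.71-fold (4.39 to 5.06) beside a KO ratio of 0.983 (0.897 to 1.08). F3 had the third-highest fold change of the 10 in WT.

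Crim1 (ENSMUSG00000024074, chr17:78507677-78684021) encodes a transmembrane protein with cysteine-rich repeats that binds BMPs. It read 22.3 and 24.6 CPM on KO soft, 24.1 and 24.8 on KO stiff, 35.8 and 38.0 on WT soft and 72.9 and 73.5 on WT stiff. The rise in WT was 1.99-fold (1.80 to 2.19, adjusted p = 9.59e-10) and the KO ratio 1.04 (0.936 to 1.17). Fez2 on the opposite strand overlaps Crim1 over 7381 bases and had 165% to 297% as many counts, so the Crim1 values are uncertain if strand was not used. The share, a ratio to Crim1 itself, was lowest on WT stiff, where Crim1 was highest. Fez2 also had its highest counts there, 2511 and 2380, against 2285 and 1416 on WT soft and 1438 to 1676 in KO.

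Axl (ENSMUSG00000002602, chr7:25456698-25488130, reverse strand) encodes a receptor tyrosine kinase for GAS6. Its 2 KO soft libraries read 8.08 and 6.96 CPM, KO stiff 8.06 and 6.77, WT soft 6.82 and 7.61, and WT stiff 13.9 and 13.7. The first 3 groups overlapped and only WT stiff stood apart, 1.92-fold above WT soft (1.56 to 2.36, adjusted p = 3.34e-05). On soft the ratio of KO to WT was 1.05 (0.846 to 1.31, adjusted p = 0.802), so a difference there was not detected, and Axl was the gene called higher on stiff in WT but not lower in KO on soft.

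Ankrd1 (ENSMUSG00000024803, chr19:36089361-36097499, reverse strand) encodes a nuclear ankyrin-repeat protein best known from stretched muscle. It read 6.83 and 7.36 CPM on KO soft, 5.43 and 5.09 on KO stiff, 23.1 and 22.2 on WT soft and 200 and 204 on WT stiff. Its rise in WT, 8.91-fold (8.14 to 9.74), was next to that of Ccn2. In KO cells the stiff level was below the soft level, a ratio of 0.745 (0.638 to 0.869), with an unadjusted p of 0.000861 and an adjusted p of 0.484 over all genes by edgeR, so it was not called. Of the 10 genes it had the lowest KO ratio, and its direction in KO was opposite to that in WT.

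Dlc1 (ENSMUSG00000031523, chr8:37034905-37420297, reverse strand) encodes a GTPase-activating protein of RhoA and so a brake on contractility. The levels were 18.3 and 15.3 CPM on KO soft, 19.5 and 16.8 on KO stiff, 19.9 and 21.0 on WT soft and 28.9 and 28.3 on WT stiff. The WT stiff libraries were the highest, but the log2 fold change in WT of 0.49 (standard error 0.10, adjusted p = 0.00086) lay just under the limit of 0.5 and was not called. On the stiff hydrogel Dlc1 was 1.58-fold higher in WT than in KO (1.36 to 1.83, adjusted p = 3.50e-05). It passed that limit in WT without the second WT soft (0.53) or the second WT stiff library (0.50).

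**Figure D3:**
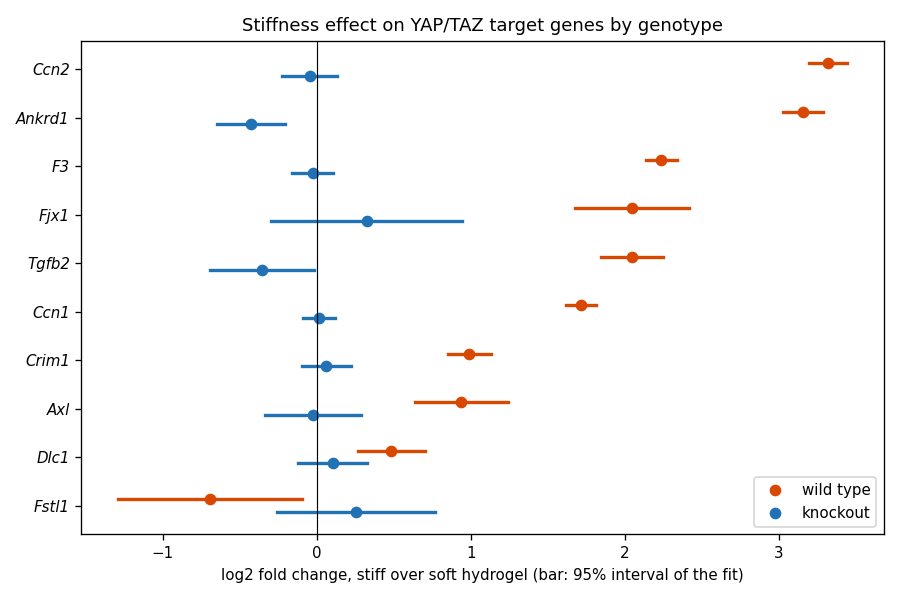
Log2 fold change from the soft to the stiff hydrogel in wild-type (orange) and knockout (blue) hepatocytes for each of the 10 genes, with 95% intervals of the edgeR fit and 2 libraries per group. Wild-type values run from -0.69 (Fstl1) to 3.32 (Ccn2), and knockout values from -0.43 (Ankrd1) to 0.33 (Fjx1).

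The stiffness effect was then compared between the genotypes by the interaction, the log2 effect in WT minus that in KO. It was called higher for 8 of the 10 genes and lower for none, where 8.21% and 8.64% of all tested genes were called. The values were 3.58 for Ankrd1 (standard error 0.12), 3.36 for Ccn2 (0.10), 2.40 for Tgfb2 (0.19) and 2.26 for F3 (0.079). Ankrd1, whose KO level was lower on stiff, came before Ccn2 by this measure. The other 4 called were Fjx1 (1.72, standard error 0.35), Ccn1 (1.70, 0.066), Axl (0.96, 0.21) and Crim1 (0.93, 0.10), with adjusted p from 2.16e-12 (Ccn1) to 0.00156 (Axl). Dlc1 (0.38, adjusted p = 0.0613) and Fstl1 (-0.94, adjusted p = 0.0674) were not called.

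Between genotypes on the same hydrogel, 7 of the 10 genes were called lower in KO on soft, where 4.65% of all tested genes were called lower and 2.02% higher. On stiff 9 of the 10 were lower in KO and 1, Fstl1, was higher, where 15.0% of all tested genes were lower and 13.7% higher. The median log2 difference of the 10 genes, KO minus WT, was -1.58 on soft and -3.48 on stiff. On stiff the WT level exceeded that of KO 38.3-fold for Ankrd1 (34.3 to 42.8), 30.8-fold for Ccn2 (27.8 to 34.0), 19.97-fold for Tgfb2 (16.8 to 23.8), 16.2-fold for F3, 12.8-fold for Fjx1 and 9.71-fold for Ccn1. Crim1 (2.99-fold), Axl (1.86-fold) and Dlc1 (1.58-fold) differed far less.

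The graded order of KO below WT soft below WT stiff was asked of each gene by 3 calls: lower in KO soft than in WT soft, lower in KO stiff than in WT soft, and higher in WT stiff than in WT soft. In the comparison of KO stiff with WT soft, 7 of the 10 genes were called lower in KO and none higher, against 4.72% and 2.16% of all tested genes. The 7 genes Ccn1, Ccn2, Tgfb2, Fjx1, Crim1, F3 and Ankrd1 met all 3 calls, as did 1.82% of all tested genes. None met the opposite order, which 0.987% of all tested genes did. The 3 comparisons share the WT soft libraries and are therefore not independent. Axl, Dlc1 and Fstl1 were not graded: for Axl both KO groups lay with WT soft, for Dlc1 the KO groups were not called against WT soft (log2 -0.27 on soft, adjusted p = 0.0835, and -0.17 on stiff, adjusted p = 0.302), and the means of Fstl1 ran in the reverse order. KO soft and KO stiff, the neighbours at the low end of every graded gene, were not called apart for any of them.

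The graded genes also differed in where the climb lay. The log2 step from KO soft to WT soft was 1.58 for Ccn1, 1.58 for Ccn2, 1.68 for Ankrd1, 1.76 for F3, 1.92 for Tgfb2 and 1.95 for Fjx1 (standard errors 0.048 to 0.24), and 0.65 for Crim1. The step from WT soft to WT stiff ranged more widely, from 0.99 for Crim1 and 1.72 for Ccn1 to 3.15 for Ankrd1 and 3.32 for Ccn2. The share of the whole log2 distance covered by the step on stiffness was 67.8% for Ccn2 and 65.2% for Ankrd1, against 51.2% to 52.1% for Fjx1, Tgfb2 and Ccn1, with F3 at 56.0% and Crim1 at 60.2%. The steps share the WT soft libraries, and the difference between them was not tested.

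**Figure D4:**
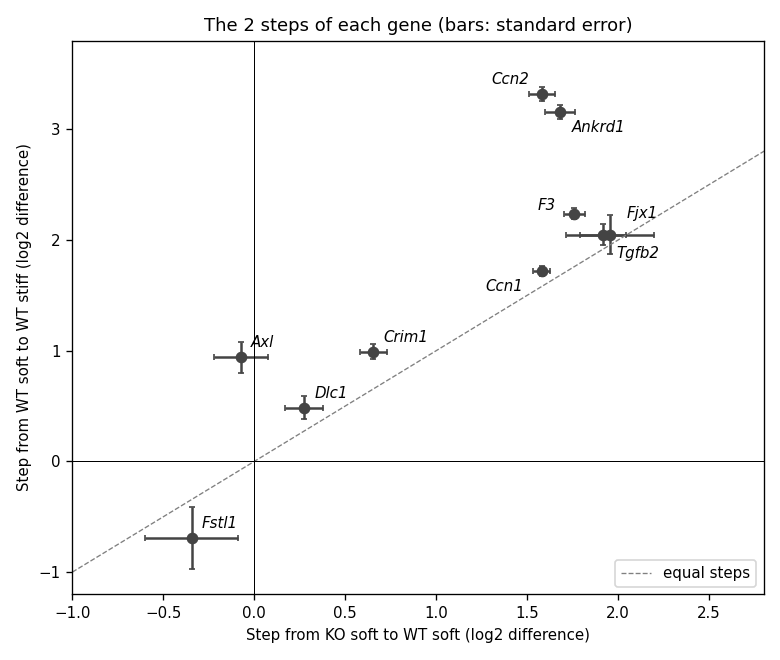
Log2 step from KO soft to WT soft (x axis) against the step from WT soft to WT stiff (y axis) for the 10 genes, with standard errors of the edgeR fit and a dashed line where the steps are equal. Ccn2 and Ankrd1 lie far above the line, Tgfb2, Fjx1 and Ccn1 lie near it, Axl lies at -0.07 on the x axis, and Fstl1 is negative on both.

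Per length of transcript the genes covered a wide range of levels, given here as RPKM (CPM per kilobase) with the gene lengths of the deposited table. On WT stiff the order was Ccn1 (628 RPKM, above 99.6% of tested genes), Ccn2 (140), F3 (134), Ankrd1 (70.0), Crim1 (12.2), Tgfb2 (9.80), Fjx1 (4.93), Axl (2.74), Dlc1 (1.95) and Fstl1 (0.406). Ccn2 and F3, neighbours in that order, lay at 97.6% and 97.4% of tested genes. On KO stiff Ccn1 was still at 64.6 RPKM, above 94.6% of tested genes, whereas Ccn2 (4.55), Ankrd1 (1.82) and Tgfb2 (0.490) had dropped to 53.1%, 35.3% and 17.4%. F3 at 8.25 RPKM then stood above Ccn2, a reversal of their order on WT stiff that was not tested. Ccn1 thus had the highest level per length of the 10 in every group.

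Genes whose pattern was most like that of Ccn2, Ankrd1 and Fjx1 over the 8 libraries were found by the root mean square (RMS) difference of log2 CPM centred on each gene's own mean, among 10028 genes with a mean of at least 100 counts. Nearest to Ccn2 were the pseudogene Olfr1372-ps1 (0.296), Krt19 (0.307), a keratin of bile duct cells, and Crct1 (0.361). Nearest to Ankrd1 were Olfr1372-ps1 (0.299), Krt19 (0.336) and Tgtp1 (0.355), and nearest to Fjx1 were Thbs1 (0.174), which encodes the matricellular protein thrombospondin-1, Fgd3 (0.191) and Endod1 (0.219). Krt19 read 0.429 to 0.845 CPM in KO, 1.81 and 2.44 on WT soft and 21.0 and 20.1 on WT stiff. Mean CPM on KO soft, WT soft and WT stiff was 0.772, 1.90 and 17.7 for Olfr1372-ps1 and 0.946, 3.39 and 22.8 for Tgtp1. Since the limit was on the mean over all libraries, such genes could pass it mainly through WT stiff, and their KO levels rest on few counts. Of the 9 cholangiocyte markers 6 were tested. Between WT soft and WT stiff Krt19 was the 1 called higher and Tspan8 the 1 called lower (log2 -1.26, adjusted p = 0.0316 by edgeR). Of all tested genes 10.0% were called higher and 9.26% lower there, so 1 of 6 each way says little about these markers. Krt7 was at most 0.148 CPM and Cftr was at 0 in every library.

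A further list of 14 genes from published YAP/TAZ target scores held 12 that were tested, since Foxf2 and Rbms3 had too few counts. In WT 6 of the 12 were called higher on stiff and 2 lower, against 10.0% and 9.26% of all tested genes. The median log2 fold change of the 12 in WT was 0.73. In KO none was called, with a median of 0.053. Myof, a ferlin of membrane repair, went from 20.0 and 25.0 CPM on WT soft to 133 and 128 on WT stiff, with 9.55 to 11.5 in KO (WT log2 fold change 2.55, standard error 0.089). Amotl2, an angiomotin that binds YAP, read 32.7 and 34.2, 117 and 118, and 11.2 to 14.4 CPM (1.81, standard error 0.078). Nuak2 (1.72), Igfbp3 (1.07), the Hippo kinase Lats2 (0.74) and the ARF GTPase-activating protein Asap1 (0.72) also rose. Myof, Amotl2, Igfbp3 and Nuak2 had the same graded order as the 7 genes above, which makes 4 of the 12 against 1.82% of all tested genes. The opposite order was met by 1 of the 12, Ptpn14, against 0.987% of all tested genes. Ptpn14, a phosphatase that holds YAP in the cytoplasm, ran the other way, at 106 to 112 CPM in KO, 52.4 and 55.0 on WT soft and 18.7 and 19.8 on WT stiff (log2 -1.48, adjusted p = 2.08e-12). Ccdc80 (log2 -1.21, adjusted p = 0.0427) had at most 1.73 CPM in any library, and DESeq2 called 1 of the 12 lower where edgeR called 2.

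**Figure D5:**
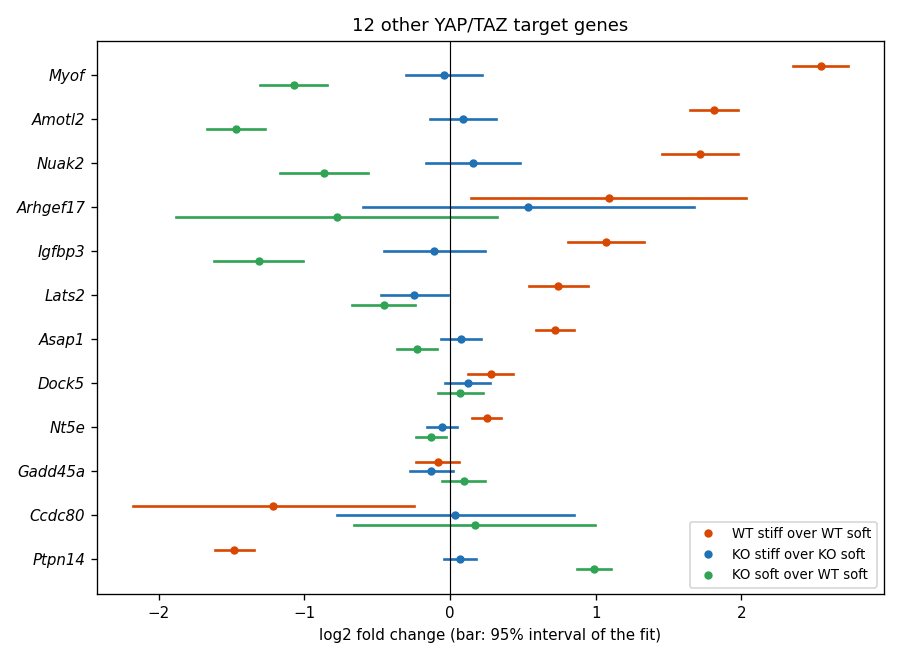
Log2 fold change of 12 further YAP/TAZ target genes for WT stiff over WT soft (orange), KO stiff over KO soft (blue) and KO soft over WT soft (green), with 95% intervals of the edgeR fit and 2 libraries per group. Wild-type values run from -1.48 (Ptpn14) to 2.55 (Myof), and no knockout value was called.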

How the data were processed

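RNA-seq was made from 8 libraries, 2 each of KO and WT hepatocytes on soft and stiff hydrogels, grouped by the labels. The deposited values were raw read counts per gene, which the authors made from paired-end reads with HISAT2 2.0.5 and featureCounts. The submitters' processing notes name mm9 with no role. The labels allow dUTP (directional) or dTTP libraries and the study's methods name dUTP, and the strand setting of the counting is not given in the sources used here. Counts were fitted over all 8 libraries in edgeR 4.0.16 (R 4.3.3; filterByExpr by group, TMM, quasi-likelihood F test), with 14279 of 56748 genes tested, 4 residual degrees of freedom and calls at an adjusted p (Benjamini-Hochberg over all tested genes) under 0.05 with a log2 difference beyond 0.5 either way. Standard errors and 95% intervals came from the same fit. DESeq2 1.42.0, other scalings, filters and fold limits, and leaving out each library were tried. Totals were 18324083 to 26442310 counts, and replicates differed by more than sampling noise (chi-square per degree of freedom 2.62 to 5.45). The genes named were the 10, Yap1 and Wwtr1, and genes of the further list that were called or at its extremes. Also named were the 3 genes outside the 10 most like each of Ccn2, Ankrd1 and Fjx1, and extreme or defining cell type markers. The members and lists were chosen with earlier results of these data known. The code was tested on simulated data. Promoter sequences are RefSeq's for GRCm38.p6; gene positions are the deposited ones, and none of the 10 equals its GRCm38 position.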

Additional observations from a re-analysis of the deposited data

Results flagged for a closer look

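By the interaction test of edgeR the stiffness effect differed between the genotypes for 8 of the 10 genes, all called higher. Of all tested genes 8.21% were called higher and 8.64% lower. The value is the log2 fold change from soft to stiff in WT minus that in KO. The difference was 3.58 for Ankrd1 (adjusted p = 3.66e-13), 3.36 for Ccn2 (7.07e-14), 2.40 for Tgfb2 (1.55e-08) and 2.26 for F3 (4.41e-13). It was 1.72 for Fjx1 (adjusted p = 0.000985), 1.70 for Ccn1 (2.16e-12), 0.964 for Axl (0.00156) and 0.928 for Crim1 (1.17e-06). In each of the 8 both WT stiff libraries lay above both WT soft libraries, but so did those of Dlc1, whose interaction was not called. The share of all tested genes that separated in this way is not given here. Groups of 2 libraries are too small for a check of single outlying libraries.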

How the results depend on the processing

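Of 1180 values of single genes under another setting, 1147 kept their direction and call, 13 gained and 8 lost a call, and 12 changed direction. The 8 lost calls, of Crim1, Axl and Dlc1, all came from a limit of 1 on the absolute log2 fold change. The 12 changes of direction all came from leaving out 1 library, in comparisons that were not called: between KO soft and KO stiff the range was -0.061 to 0.085 for Ccn1, -0.14 to 0.060 for Ccn2, -0.016 to 0.13 for Crim1, -0.16 to 0.086 for Axl and -0.018 to 0.24 for Dlc1, and for Axl it was -0.046 to 0.17 between KO soft and WT soft and -0.091 to 0.16 between KO stiff and WT soft. Fstl1 was called lower on stiff in WT with no filter on low counts (log2 -0.68, adjusted p = 0.0274) and with robust estimation of the spread (-0.69, 0.0415), over a range of -1.15 to -0.33 with 1 library left out, so the number called lower in WT was then 1. The same settings called its interaction (-0.92, adjusted p = 0.0297, and 0.0453), which made the number called lower there 1. Leaving out 1 library gave 8 to 9 called higher and 0 to 1 lower in WT, 8 to 9 and 0 to 1 in the interaction, and 0 to 1 higher for KO stiff against WT soft. Of the further target genes, DESeq2 on all 8 libraries called 1 lower in WT, and with 1 library left out 1 to 2 were lower and 3 to 5 graded. Another scaling moved the median of all genes by at most 0.057. The replicate differences of 2 groups correlated at -0.316 to 0.206. For KO soft with KO stiff the value was -0.0678, and for WT soft with WT stiff 0.0364. With 2 libraries per group such values cannot show whether equal replicate numbers share an animal or preparation. With the replicate block 8 of the 10 genes were called higher in WT and no call of the 10 changed. Low counts limit Fjx1 and Fstl1 most, and the motif counts were the same in the 250 bases before the start alone.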
